A study of Marmota monax with 20 samples.

Results

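The genes described here are the 108 of 30973 woodchuck genes whose RNA level was high in both spleen and lung and lower in every library of the other tissues. They were chosen by a rule on the levels themselves. The level of a gene in a library is its read count divided by that library's size factor, called a normalised count below. The score of a gene is its lowest level among the 5 spleens and the lung, divided by its highest level among the other 14 libraries after 5 was added to the latter. A gene was kept with a score of at least 1.5, a lowest spleen or lung level of at least 200, and a mean spleen level between 0.25 and 4 times the lung level. Since the rule used these levels, the height of the members in spleen and lung over the other tissues is a description and no test was made of it.

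Poly(A)-selected RNA of *Marmota monax*, the Eastern woodchuck, was sequenced from 20 untreated tissue samples of adult animals that were negative for the woodchuck hepatitis virus. Liver had 6 libraries (3 females, 3 males), and spleen and kidney had 5 each (2 females, 3 males). Lung and heart had 1 library each, both from the female F6849, and pancreas and thymus 1 each, both from the female F9150. The other animals were the female F6852 (liver alone) and the males M4046, M4075 and M4091. The spleen of F6849 and the only lung came from the same animal, and the height in lung rests on that single library for every member. Replicates are separate animals. The identifiers of the table are not paired with gene names in the files used here, and 0 of the 30973 were found in the RefSeq gene table, so the members are given by identifier, their functions are not stated, no sequence is printed, and neither the tissue labels nor a cell type could be compared with marker genes here.

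The spleen filters blood through its red pulp, where macrophages remove worn red cells, and holds lymphocytes in its white pulp. The lung has a dense capillary bed, macrophages that patrol the alveoli, and lymphoid tissue along the airways. Both organs therefore hold many blood-derived and immune cells beside their own stroma and endothelium. In bulk tissue, fewer cells of a type and less RNA per cell cannot be told apart.

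Of the 30973 genes, 298 reached the score, and 206 of these also reached the level of 200. The limits on the ratio removed 98 of the 206, with 92 above 4 and 6 below 0.25, which left the 108 members. The limit of 150 members was not reached. Scores of the members ran from 1.51 to 6.83 with a median of 1.99. There were 14 members with a score under 1.6, and 24 genes that met the other limits lay between 1.4 and 1.5, so the edge of the list is not a gap. Just inside it, Monax4B040357 scored 1.51, with a lowest level of 509 in lung and a highest other level of 333 in the liver of F9150. Just outside, Monax4B041566 scored 1.49, with 5369 as its lowest and 3588 as its highest other level. At the other limits, Monax4B046576 missed the level with a lowest value of 173, Monax4B041365 missed the ratio at 4.02, and Monax4B020315 missed it at 0.244.

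The members held a small part of the RNA in every tissue. They took 1.29% ± 0.133 (SD, n = 5) of all counts in spleen and 0.925% in lung (95% Wilson interval 0.923% to 0.927%). In kidney they took 0.154% ± 0.0521 (SD, n = 5), and in liver 0.0363% ± 0.00600 (SD, n = 6). In the single libraries the share was 0.109% in heart (0.1086% to 0.1102%), 0.0991% in thymus (0.0983% to 0.0998%) and 0.0205% in pancreas (0.0202% to 0.0208%). These intervals cover counting error only and are probably too narrow even for that. Copies of 1 molecule made by PCR are counted apart, and both reads of a fragment seem to enter the count. Total counts ran from 59487004 to 140252555 per library, and the lung had 104383997.

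The median level over the 108 members was 2786, 1672, 2596, 2500.3 and 2337 in the spleens of F6849, F9150, M4046, M4075 and M4091, and 1215 in lung. It was 232 in thymus, 220 in heart and 138 in pancreas. Across the kidneys it ran from 96.9 in M4091 to 284 in M4046, and across the livers from 162 in F9150 to 238 in M4075. The lung lay below the lowest spleen on this measure, and each remaining library lay far below the lung.

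**Figure D1:**
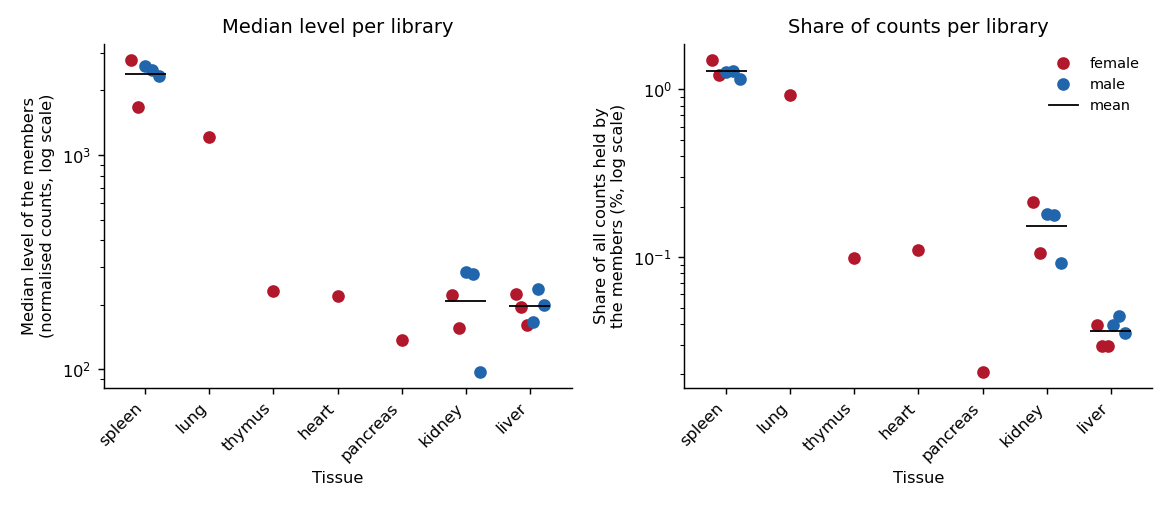
Each point is 1 library, by tissue, with females in red, males in blue and a line at the mean of replicated tissues. The left panel plots the median level of the 108 members in normalised counts and the right panel their share of all counts in percent, both on log scales. The spleens (1672 to 2786) and the lung (1215) sit at the top of the left panel, and the other libraries lie between 96.9 and 284.

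A single gene weighed heavily on the sums. Monax4B012038 had 373190.2, 247544, 224714, 296213 and 219267 normalised counts in the spleens of F6849, F9150, M4046, M4075 and M4091, and 244854 in lung. It made up 31.9% to 40.6% of the summed level of the members in a spleen and 46.0% in lung. Outside these tissues it reached 63220.0 in the kidney of F6849, where it was 50.1% of the sum, against 7496 to 26219.7 in the other kidneys. Heart had 23323, the livers 7160.1 to 13138, thymus 1695 and pancreas 406. Its lung level thus fell within the range of the spleens, while thymus and pancreas were lowest. For this reason medians over the members are used below in place of sums.

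The second of the members by spleen count, Monax4B031926, had 49668, 32933, 48827, 38661 and 20947 in the spleens of F6849, F9150, M4046, M4075 and M4091 and 39825 in lung. Its highest level elsewhere was 6278, in the kidney of M4075, and its lowest was 447, in pancreas. The kidneys spread widely for this gene, from 936 in M4091 upward.

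The highest score belonged to Monax4B043927, with 2096, 2343, 8062, 3034 and 1609 in the spleens of F6849, F9150, M4046, M4075 and M4091 and 2421 in lung. Its thymus level was 158, and its highest level elsewhere was 230.4, in the liver of M4075. The spleen of M4046 stood above the other 4 spleens, which with the lung formed a narrow band. Next came Monax4B022605 with a score of 5.89. It had 674, 812, 1048, 2000.2 and 1668 in the spleens in the same order of animals, 706 in lung, 13.8 to 109 in the kidneys and 5.03 to 30.9 in the livers. No count was found for it in thymus or pancreas. A count of 0 allows up to 3 read pairs, or 6 counts where both reads of a pair are counted. At 6 counts per library its mean spleen level was at least 178-fold higher than its thymus level and at least 91.6-fold higher than its pancreas level.

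**Figure D2:**
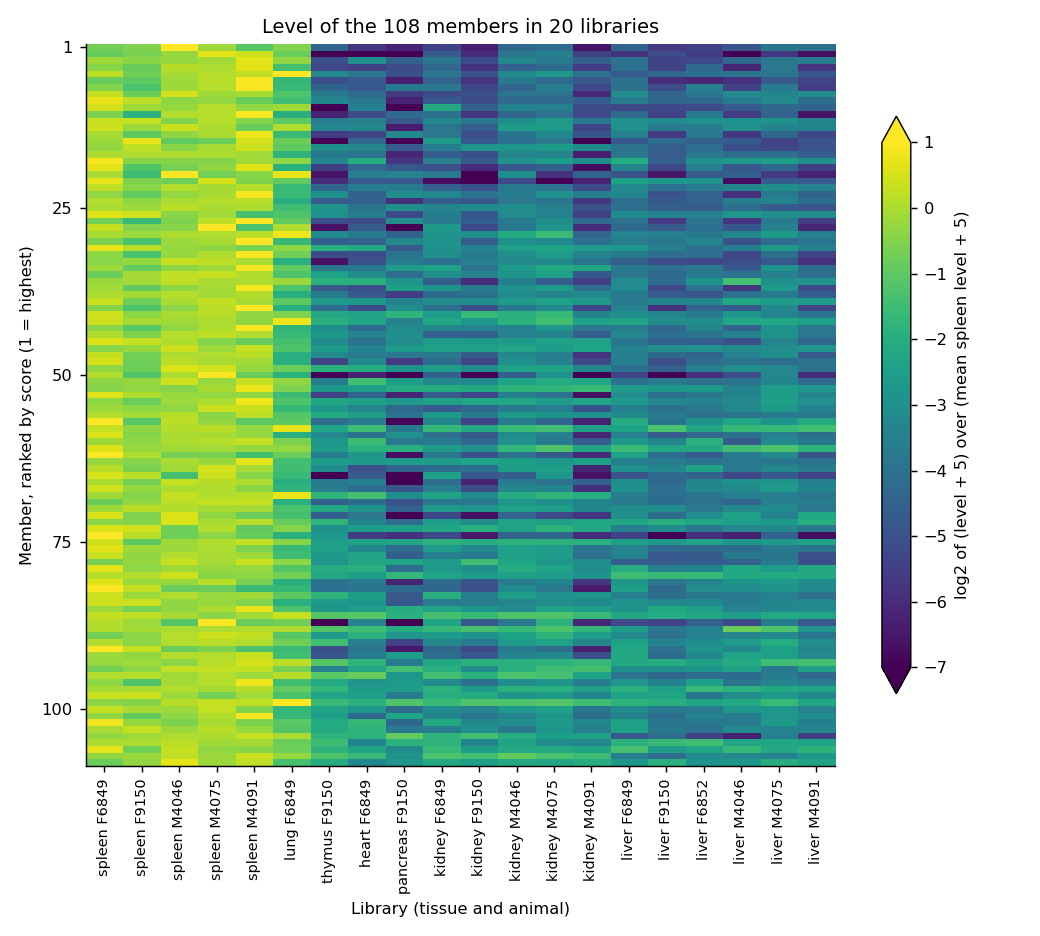
Rows are the 108 members ranked by score and columns the 20 libraries by tissue and animal; colour is the log2 of the level plus 5 over the mean spleen level plus 5. The 5 spleen columns and, less evenly, the lung column are bright by the rule. Pancreas is under 5% of the spleen mean for 45 members, thymus for 30 and liver, as a mean, for 27.

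Spleen and lung were not equal for most members. The mean of the spleens was higher than the lung in 95 of 108, and the median ratio of spleen mean to lung was 2.22 (0.305 to 3.98). The ratio exceeded 2 in 61 members, lay from 0.5 to 2 in 45 and fell under 0.5 in 2. Within the animal F6849 the spleen was above the lung in 91 members, with a median ratio of 2.17 (0.233 to 7.75). The lung lay below all 5 spleens in 73 members, within their range in 27 and above all 5 in 8. The ratio limits bound these values, and the lung has no replicate, so no test was made.

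The members at both ends of the ratio differ plainly library by library. Monax4B019537, with the highest ratio of 3.98, had 6798, 5125, 6493, 6811 and 7302 in the spleens of F6849, F9150, M4046, M4075 and M4091 against 1634 in lung. Monax4B020048, with a ratio of 3.97, had 7234, 6748, 7633, 6666 and 7470.2 against 1799.6 in lung. In both, every spleen was at least 3 times the lung, close to the upper limit of the rule. At the other end, Monax4B014379 had 533, 498, 765, 863 and 825 in the spleens and 2285 in lung, a ratio of 0.305. Monax4B009332 had 861, 444, 697, 788 and 864 in the spleens and 1464 in lung, a ratio of 0.499. For these genes the lung was above every spleen. They differed in the other tissues, where Monax4B014379 had 141 to 311 and Monax4B009332 had 18.1 to 105.

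**Figure D3:**
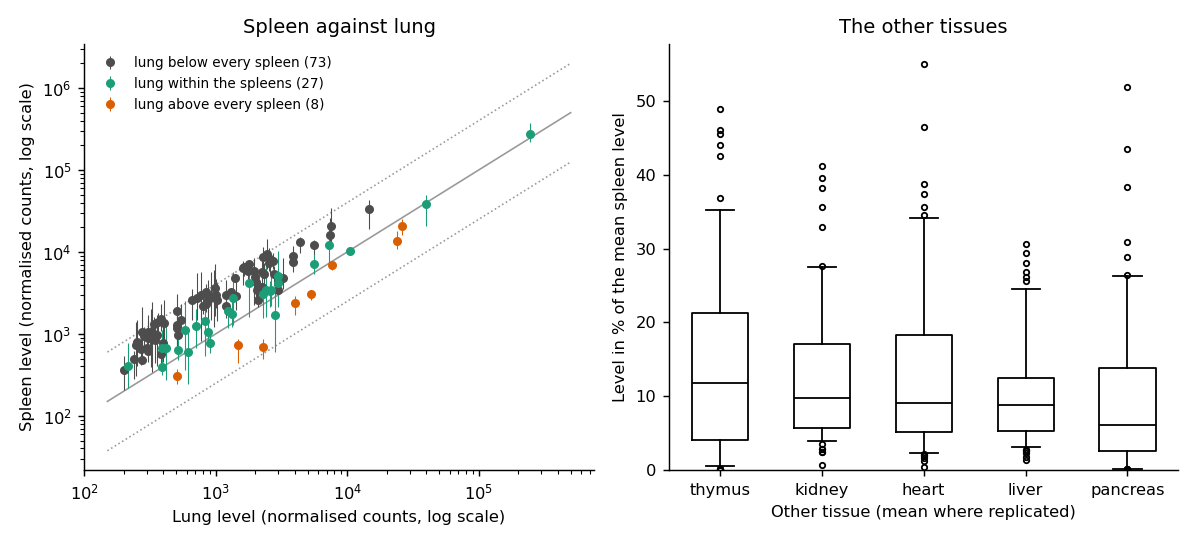
Left, the level of each member in spleen (point, mean; bar, lowest to highest of 5 spleens) against lung in normalised counts on log scales, with the line of equality solid and the ratios of 4 and 0.25 dotted; most points (73) have the whole bar above the lung level. Right, the level of each member in the other tissues in percent of its spleen mean, with boxes at the quartiles, whiskers at the 5th and 95th percentiles and points beyond; the medians run from 6.08% in pancreas to 11.8% in thymus.

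Among the other tissues, thymus was the nearest to the spleen by the median member, at 11.8% of the spleen mean, followed by kidney at 9.70%, heart at 9.14%, liver at 8.86% and pancreas at 6.08%. With kidney and liver taken as means, the highest tissue outside spleen and lung was thymus for 35 members, kidney for 21, heart for 18, pancreas for 18 and liver for 16. By single libraries the order differed. The highest level outside spleen and lung lay in the kidney of M4075 for 21 members, in thymus for 15 and in the liver of M4075 for 11. With kidney and liver again taken as means, pancreas was the lowest tissue for 53. Which tissue came next after spleen and lung therefore varied from member to member, and thymus, heart and pancreas were single libraries. Thymus and lung shared a sequencing lane, and the part of the lane in these levels was not tested.

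Thymus exceeded 25% of the spleen mean in 18 members. Monax4B010297 had 7144, 7434, 6151, 7454 and 6019.7 in the spleens of F6849, F9150, M4046, M4075 and M4091, 7596 in lung and 3344 in thymus, which was 48.9% of its spleen mean. Monax4B014767 had 589 to 1094 in the spleens, 896 in lung and 359 in thymus, or 46.0%. They ranked 95 and 93 of the 108 by score, and the heart of F6849 was slightly above thymus for the former, at 3759.6. In contrast, 2 members had no count in thymus, Monax4B022605 described above and Monax4B030157. The latter had 589, 1106, 349, 389 and 936 in the spleens and 389 in lung, with 0 counts also in pancreas and in the kidney of M4091. Its mean spleen level was at least 96.8-fold higher than thymus, at 6 counts per library.

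The list rests on the single libraries of other tissues as well as on spleen and lung. Without thymus in the rule 153 genes passed, 45 more than the 108, and without heart or pancreas 126 and 127. The 45 genes let in without thymus had a thymus level of 24.8% to 361% of their spleen mean (median 60.9%). With a spleen left out in turn, 105 to 129 genes passed, the highest number without M4091. The spleen left out then served as a sample the choice had not used. Of the genes chosen without it, 110 of 110 lay above every library of the other tissues in F6849, 104 of 105 in F9150, 113 of 114 in M4046, 113 of 113 in M4075 and 124 of 129 in M4091. For comparison, 20.1% to 24.8% of all genes with a level of at least 200 in that spleen did so. Those genes had not been chosen for height in the other spleens, so they are not a matched background. The high shares follow largely from the choice. The score limit itself was met in the spleen left out by 87.6% (M4091) to 99.1% (M4075) of the genes chosen without it. The lung and the other tissues took part in the choice each time, so this check bears on the spleens alone.

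The spread over the 5 spleens varied widely among the members. The coefficient of variation over the spleens had a median of 30.0% over the members (3.95% to 81.3%) and of 17.8% over the 12114 genes with at least 200 in every spleen. The highest spleen was a median of 2.16 times the lowest for members and 1.55 times for those genes, and no test was made of these medians. The range was under 2-fold in 46 members and over 4-fold in 18.

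The spleen of F9150 was the lowest of the 5 in 51 members (47.2%), against 21.8% of the 12114 genes, and the highest in 5. F6849 was the highest in 39 members (36.1%, against 28.2% of those genes). M4091 was the highest in 33 (30.6%, against 28.7%) and the lowest in 26 (24.1%, against 22.2%), shares near those of all genes. Members with the lung inside the range of the spleens had a median coefficient of variation of 44.2%, those with the lung below 29.9% and those with the lung above 18.7%. The range of the spleens enters both measures, so these values are a description.

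The pair with the largest coefficient of variation is given first. Monax4B030930 (81.3%) had 2453, 1304, 595, 588 and 344 in the spleens of F6849, F9150, M4046, M4075 and M4091, and 329.7 in lung. Monax4B016202 (77.4%) had 3359.6, 1511, 902, 939.9 and 541 in the same order, and 829.2 in lung. In both genes F6849 was the highest, F9150 second and M4091 the lowest spleen, so that the females lay above the males. The steadiest was Monax4B040628 (3.95%), with 10635, 9599, 9932, 10171 and 10388 in the spleens and 10409 in lung. For it the lung lay inside the narrow range of the spleens. Monax4B044975 (5.64%) had 4944, 5059, 4959, 4907 and 4369 in the spleens and 1392 in lung, far below them.

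Liver and kidney were compared because the rule sets an upper limit to both and does not set which is the higher. The 16 liver, kidney and spleen libraries were fitted with edgeR's quasi-likelihood test, without a block for the animal. At a false discovery rate of 0.05, 15 of 108 members were higher in liver and 33 higher in kidney. These are 13.9% and 30.6% of the members. Over all 20764 genes tested, 32.1% were called higher in liver and 30.9% higher in kidney. No test was made of these shares against each other. The median log2 difference of liver minus kidney was -0.28 over the members and 0.03 over all genes, and 45 members had a positive value.

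The animal, the sequencing lane and the scaling bear on these counts. Liver and kidney came from the same animals, apart from the liver of F6852, and with the animal as a block 20 members were higher in liver and 29 in kidney, beside 32.1% and 30.8% of all genes. With the lane as a block 3 members were higher in liver and 26 in kidney, beside 24.2% and 24.4% of all genes. With library sizes alone the counts were 2 and 89, and the median of all genes then shifted to -1.52, so the split is relative to the composition factors. The shares of all genes called in that fit are not set beside these counts.

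Without any fit, every kidney lay above every liver in 18 members (background 25.4% of 18005 genes with a level of at least 200 in a library) and every liver above every kidney in 2 (background 24.5%). Within animals, the kidney was above the liver for 58 members in F6849, 54 in F9150, 81 in M4046, 76 in M4075 and 51 in M4091. These are 53.7%, 50%, 75%, 70.4% and 47.2% of the members. Of the 18005 genes the shares were 49.1%, 48.8%, 51.1%, 51.0% and 47.3% in the same order, and no test was made of the difference. In all 5 animals the kidney was above for 29 members, and in none for 19. Over the kidneys, M4075 was the highest for 49 members and M4046 for 34, while M4091 and F9150 were the lowest for 49 and 44. Neither these counts nor those over all 5 animals were made for all genes, so they cannot be called particular to the members.

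**Figure D4:**
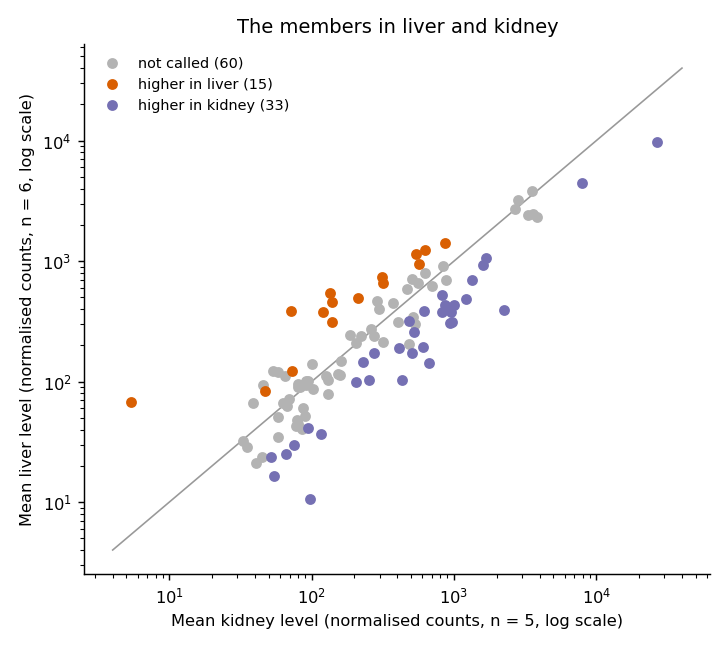
Each point is a member, with its mean kidney level (n = 5) on the horizontal and its mean liver level (n = 6) on the vertical axis, in normalised counts on log scales with the line of equality. By edgeR without an animal block, the 15 members called higher in liver lie above the line and the 33 called higher in kidney below it. The other 60 were not called.

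The 15 members higher in liver in the fit without an animal block had a median log2 difference of 1.24 (0.77 to 3.76). Their median level was 495 in liver and 139 in kidney. The largest difference was that of Monax4B047321. It had 137, 113, 102, 2.51, 25.6 and 25.3 in the livers of F6849, F9150, F6852, M4046, M4075 and M4091 and 2.34, 1.25, 16.8, 1.12 and 5.62 in the kidneys of F6849, F9150, M4046, M4075 and M4091. The livers of the females were the highest and that of M4046 fell inside the range of the kidneys, which rest on 2 to 20 counts each. The log2 difference was 3.76 (SE 0.88, adjusted p = 0.00144 by edgeR), and with the lane as a block 2.41 with an adjusted p of 0.155. Monax4B030127 followed, with 358, 168, 347, 533, 263 and 647 in the livers and 72.6, 25.1, 136, 74.8 and 50.6 in the kidneys of the same animals in the same order. Here the groups did not overlap, and the log2 difference was 2.48 (SE 0.44, adjusted p = 0.000144 by edgeR).

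The 33 members higher in kidney in the fit without an animal block had a median log2 difference of -1.15 (-3.15 to -0.54). Their median level was 604 in kidney and 257 in liver. Their median level in thymus was 525, against 170 for the members higher in liver. These are medians over different genes, and gene length enters them. Monax4B022798 had 110.0, 145, 92.3, 65.9 and 73.0 in the kidneys of F6849, F9150, M4046, M4075 and M4091 and 9.61, 17.2, 4.08, 0, 29.3 and 3.62 in the livers of F6849, F9150, F6852, M4046, M4075 and M4091. All kidneys were above all livers, and the log2 difference was -3.15 (SE 0.57, adjusted p = 0.00017 by edgeR). For Monax4B010297, named above for its thymus level, the kidneys had 2558, 1844, 2851, 2671 and 1326 and the livers 437, 330.0, 363, 377, 512 and 344. The groups again did not overlap, and the log2 difference was -2.46 (SE 0.19, adjusted p = 1.88e-08 by edgeR).

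Females and males were compared within spleen, liver and kidney, each in a fit of its own. In spleen edgeR called 0 of 108 members higher in females and 0 higher in males, as it called 0% of 19735 genes in either direction. At an unadjusted p under 0.05 there were 31 members, 14 higher in females and 17 in males, beside 4154 of all genes. DESeq2 called 10 members higher in females and 9 higher in males, where it called 7.63% and 4.9% of all genes. The counts thus depended on the tool. Every female spleen lay above every male spleen in 14 members (13.0%) and every male above every female in 34 (31.5%). Among the 14951 genes with a mean spleen level of at least 100 these shares were 20.5% and 23.6%.

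The members with the lowest p in spleen did not pass the threshold. Monax4B005221 had 11555 and 11544 in the female spleens of F6849 and F9150 and 7007, 7417 and 6154 in the males M4046, M4075 and M4091. The females were close to each other and above all males, with a log2 difference of 0.80 (SE 0.14, adjusted p = 0.0865 by edgeR). Monax4B046717 had 1188 and 1434 in the females and 2271, 2298 and 2295 in the males. Here the males were nearly equal and above both females, with a log2 difference of -0.75 (SE 0.16, adjusted p = 0.097 by edgeR). Leaving out the spleen of F9150 gave 5 calls for females, with Monax4B030930 and Monax4B016202 among them, beside 2.25% of all 20489 genes in that fit. It sets the 1 remaining female, F6849, against 3 males, with the spread taken from the males and the lone female assumed to vary like them. Leaving out any other spleen gave 0 calls, also without F6849, where the female is again a single library.

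In liver, where the members were low, edgeR called 0 of 107 members tested in either direction, against 0.712% of all genes higher in females and 0.559% higher in males. There were 10 members at an unadjusted p under 0.05, with 6 higher in females and 4 in males, beside 3218 of 17547 genes. DESeq2 called 3 and 2 members, beside 4.24% and 4.5% of all genes. Females and males did not overlap in 3 members in each direction among the 75 with a mean liver level of at least 100, which is 4% each (background 11.8% for females higher and 14.1% for males higher). Monax4B007880 had 1203, 1093 and 1093 in the livers of the females F6849, F9150 and F6852 and 772, 783 and 774 in the males, with no overlap, a log2 difference of 0.58 (SE 0.15) and an adjusted p of 0.108 by edgeR. Monax4B012038, the gene that dominates the sums, had 7160.1, 7222 and 7397 in the females and 10233, 13138 and 12755 in the males. The males were all higher, with a log2 difference of -0.70 (SE 0.14, adjusted p = 0.0663 by edgeR).

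In kidney edgeR likewise called 0 of 107 members in either direction and 0% of 20520 genes, with 9 members (1 higher in females, 8 in males) and 1644 genes at an unadjusted p under 0.05. DESeq2 called 1 member higher in females and 2 higher in males, beside 0.96% and 1.61% of all genes. Of the members tested 23 had a positive female minus male value, and the median log2 difference was -0.36 over the members and 0.00 over all genes. That median was -0.78, -0.14, -0.20, -0.15 and -0.57 without the kidney of F6849, F9150, M4046, M4075 and M4091, so its size depended on single kidneys, and without F6849 or F9150 the females are 1 kidney. Every male kidney lay above every female kidney in 14 of the 72 members with a mean kidney level of at least 100 (19.4%, background 12.9%) and every female above every male in 1 (1.39%, background 13.0%).

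The kidney members with the lowest p were Monax4B015869 and Monax4B032655. The former had 1259.6 and 1167 in the female kidneys and 691, 782 and 472 in the males, with a log2 difference of 0.93 (SE 0.25, adjusted p = 0.543 by edgeR). Monax4B032655 had 763 and 785 in the females and 1376, 1666 and 1474 in the males, with a log2 difference of -0.94 (SE 0.15, adjusted p = 0.439 by edgeR). The sexes did not overlap for either gene, and neither passed the threshold.

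Whether the difference between the sexes depended on the tissue was tested over the 3 tissues together. By edgeR 1 of 108 members was called, against 1.06% of 22179 genes, and DESeq2 called 5, against 10.3%. The member was Monax4B005221. In spleen its females lay above its males, as given above. In kidney it had 699 and 692 in the females and 846, 1034 and 906 in the males, so the males were higher there. In liver it had 1143, 907 and 902 in the females and 714, 859.5 and 904 in the males, which overlap. The adjusted p was 0.0466 by edgeR and 5.65e-05 by DESeq2. With edgeR it was 0.0576 with the animal as a block, a fit that called Monax4B011280 in its place, and from 0.0298 to 0.151 with a library left out in turn.

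**Figure D5:**
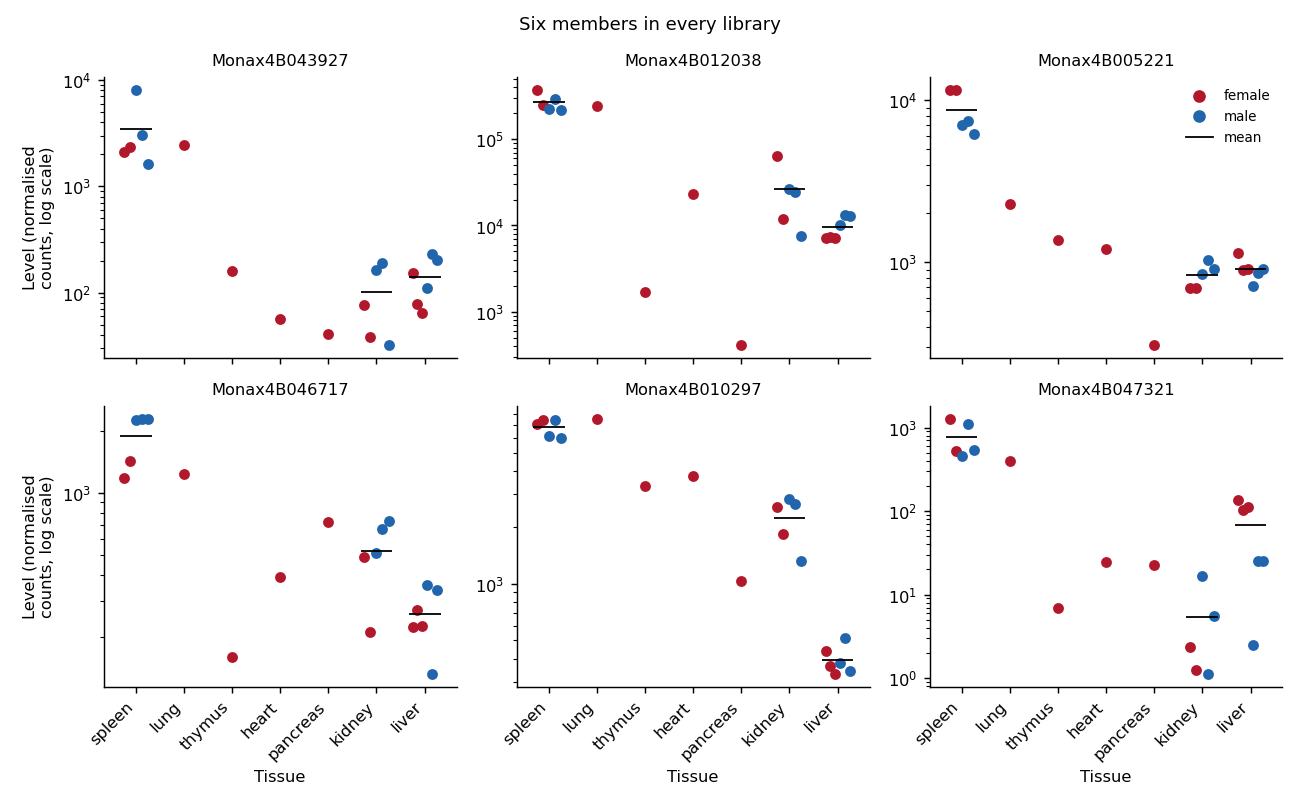
Levels of 6 members in all 20 libraries by tissue, in normalised counts on log scales, with females in red, males in blue and a line at the mean of replicated tissues. Monax4B043927 shows the high spleen of M4046 (8062), Monax4B012038 the high kidney of F6849, Monax4B005221 and Monax4B046717 the opposite order of the sexes in spleen, Monax4B010297 its kidneys above its livers, and Monax4B047321 its low and scattered kidneys.

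Over the 20 libraries the profile of a member followed the mean profile of all members with a Pearson r of 0.704 to 0.974 (median 0.918) on log2 levels, which the choice of members by tissue largely fixes. Among 17897 genes compared, Monax4B002187 and Monax4B019701 were the most alike to this mean outside the list, each with r = 0.98. Monax4B002187 had 16252 to 25451 in the spleens and 4009 in lung, with at most 1626 elsewhere. Monax4B019701 had 7497 to 9187 in the spleens and 1024 in lung, with at most 522 elsewhere. Both reached the score and failed the ratio, at 4.96 and 8.17, so the upper limit on the ratio separates them from the members rather than their pattern over the other tissues.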

How the data were processed

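The deposited values are read counts per gene for 20 libraries, whole numbers without normalization. For mapping the authors used gem-tools' rna-mapper, and gemtools counted reads on the Monax4B annotation, in which parts of 1 gene on separate scaffolds can be listed as several genes; the submitters' processing notes also name CASAVA 1.8.4 and FastQC 0.11.5. Of the counts above 0, 85.1% to 86.5% per library are even, so both reads of a fragment seem to enter the count. Sex was read from the first letter of the animal's name.

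Members and lists were chosen with earlier results of these data known. Levels are counts over median-ratio size factors from 16970 genes above 0 in all libraries. Tests used edgeR 4.0.16 in R 4.3.3 (filterByExpr, TMM, robust quasi-likelihood fit, Benjamini-Hochberg over all genes tested, threshold 0.05), with no block for the animal, and were tested on simulated data; DESeq2 1.42.0 was an alternative. The SE beside a log2 difference is the absolute difference divided by the square root of the F statistic of that edgeR test. Python 3.11.15, pandas 2.3.3 and matplotlib 3.10.9 served for levels and figures. Libraries of 1 animal come from the same individual: the 15 same-animal pairs of deviations from the tissue means had r from 0.123 to 0.314.

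Genes named are at most 2 per list and direction: highest score, edges of the list, highest spleen counts, extremes of the ratios and of the variation, and largest change among called members or lowest p where none was called. Monax4B011280, Monax4B046576, Monax4B041365 and Monax4B020315 were added after their values were seen. Females and males without overlap, the shares of all genes with kidney above liver within animals, and the genes let in without thymus, were counted after seeing the data. No lung, heart, pancreas or thymus test was made, as each has 1 library. Counts are given per gene without length. Where levels of different genes, or medians over different groups of members, stand beside each other, gene length enters them too.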

Additional observations from a re-analysis of the deposited data

Results flagged for a closer look

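Among 81 sets of 4 or more libraries of a tissue, 3 had a library far from the others, where chance gives about 1 in 20. For Monax4B043927 the spleen of M4046 had 8062 normalised counts and the other 4 spleens 1609 to 3034. For Monax4B044975 the spleen of M4091 had 4369 and the others 4907 to 5059. For Monax4B047321 the kidney of M4046 had 16.8 and the other kidneys 1.12 to 5.62, which are few counts.

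For Monax4B005221 the difference between females and males was called dependent on the tissue in the fit without an animal block (edgeR, adjusted p = 0.0466). Its level was higher in both female spleens than in the males and lower in both female kidneys than in the males. With 1 library left out in turn the adjusted p ran from 0.0298 to 0.151, and it passed the threshold in 1 of those 16 fits. DESeq2 gave 5.65e-05.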

How the results depend on the processing

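Over the alternatives, 134 of 166 values of the counts stayed within 1.5 times the reported count, and no direction of a named member reversed. A count of 0 that stayed 0 is among the 134, as in most fits of the sex comparisons, and says little about stability. For liver against kidney (15 and 33 members), library sizes alone gave 2 and 89, a setting in which all genes shifted towards kidney, as given above. Testing against a 2-fold change gave 3 and 8. The shares of all genes called are not set beside these counts or those with library sizes alone. Neither split can therefore be called particular to the members. The lane as a block gave 3 for liver, beside 24.2% of all genes. With the animal as a replicate block, which the pairing calls for, 20 and 29 members were called, beside 32.1% and 30.8% of all genes. In the sex comparisons, where 0 were called, DESeq2 gave 10 and 9 in spleen, 3 and 2 in liver and 1 and 2 in kidney for females and males. The shares of all genes called by DESeq2 are given above for each tissue. A shared fit of 16 libraries gave 1 for females in spleen and 1 for males in liver. The shares of all genes called by that fit are not set beside these, so they cannot be called particular to the members. Leaving out each library in turn gave 0 to 5 for females in spleen, the 5 without the spleen of F9150, where the females are 1 library. The tissue by sex count of 1 became 5 with DESeq2, 0 with no filter on low counts and 0 to 1 with a library left out in turn; with the replicate block it stayed at 1, for another gene. The rule passed 289 genes with library sizes alone, 107 of the 108 members among them, and 53 with a score of at least 2. The cause of these shifts was not tested.

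With 2 or 3 animals per sex, differences between the sexes can be missed, large ones included, and 1 lung shows no variation between animals. Members at a few counts in kidney, liver, thymus or pancreas have imprecise folds. Within a tissue each animal gives 1 library, and no animal block enters the sex comparisons.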
